A study of Mus musculus with 14 samples.

Results

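The CCN family of matrix signalling proteins was followed across tumor cells and fibroblasts that had been grown apart or together. Its members were the gene names Cyr61, Ctgf, Nov, Wisp1 and Wisp2 on the array, 5 of the 36413 gene names in the authors' value table. Their current symbols are Ccn1, Ccn2, Ccn3, Ccn4 and Ccn5. All 5 were well above background in at least 1 group and were among the 25896 names tested. The remaining family gene, Wisp3 (Ccn6), is no member here; its probe was not well above background on any of the 12 arrays with usable flags, and it was not tested.

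CCN proteins are secreted, cysteine-rich proteins that bind integrins, heparan sulfate proteoglycans and growth factors, and so link the matrix around a cell to signalling inside it. Cyr61 and Ctgf are textbook targets of the transcription cofactors YAP and TAZ, which act through TEAD factors, and of serum response factor, and Ctgf is also induced by TGF-beta. Nov restrains growth in many cell types and binds Notch. Wisp1 and Wisp2 were named as Wnt-inducible genes, and Wisp2 lacks the C-terminal module that the other members carry. In tumors, fibroblasts are a known source of several of these proteins.

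The study profiled D2A1, a breast cancer line of the mouse, and mouse embryonic fibroblasts (MEFs) that were Hsf1 -/- (null) or Hsf1 +/+ (WT); Hsf1 encodes the heat shock transcription factor. The 7 groups of 2 arrays were tumor cells grown with null MEFs, tumor cells grown with WT MEFs, tumor cells alone, null MEFs grown with tumor cells, null MEFs alone, WT MEFs grown with tumor cells, and WT MEFs alone. All were cultured for 72 hours in DMEM with 10% serum, and co-cultured cells were separated by cell sorting. Where tumor cells were profiled, their MEF partners had been treated with mitomycin C (10 ug/ml, 2 hours), so the MEFs that tumor cells met were not handled like the MEFs that were profiled. The labels do not give the passage or the number of embryos behind each MEF culture, nor whether replicate arrays came from separate cultures, so the p-values speak for the spread among these arrays, which may be technical.

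Each member was read by 60-base probes. The first 30 bases of each probe are shown, as part of the 60 with which the array measured that gene. The mm9 position of the whole probe is from the scanner files.
Cyr61, chr3:145310187-145310246, minus strand: aagattagttgggccaagtgaaagccctgc
Ctgf, chr10:24318281-24318340, plus strand: gtcaaatccctgttggtgaacaaatggcct
Nov, chr15:54584204-54584263, plus strand: aatgaaagatgttccgaatgtaaacttaga
Wisp1, chr15:66750958-66751017, plus strand: ctaacgatatctttgctgacttggaatctt
Wisp1, chr15:66754637-66754696, plus strand: cattcctcatttttctcatgatctgtgtag
Wisp2, chr2:163658717-163658776, plus strand: gtatttgtaaaaatacacatctcttaaatg
Wisp1 alone had 2 probes. They start at bases 1218 and 4899 of the transcript, so they read the same RNA at places far apart. The first of them spans the end of the coding sequence, with 18 codons before the stop codon, which is in capitals here: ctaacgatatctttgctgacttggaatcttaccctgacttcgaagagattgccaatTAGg. No position of any other probe within exons or UTRs was derived.

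The share of the 59305 spots that were well above background was 53.1% to 63.4% over the 12 arrays whose scanner file was sound, and 2 arrays per group limit the precision. The scanner files of tumor cells with null MEFs A and of tumor cells alone A were faulty. Signals and differences below are therefore from the authors' log2 value table, which holds all 14 arrays. The exceptions are where scanner arrays, scanner files, normexp or single probes are named. All A arrays lay on 1 slide and all B arrays on another. Hsf1 had log2 signals of 10.07 and 9.97 in null MEFs alone, against 12.01 and 11.69 in WT MEFs alone. The difference was -1.83 ± 0.12 (SE, limma, n = 2 each, adjusted p = 1.12e-06); which part of the gene the null allele lacks is not given in the sources used here, so whether the probe lies outside it is unknown. Differences below are log2, ± SE of the fit, with n = 2 arrays per group, and "adjusted p" is limma's with Benjamini-Hochberg adjustment over the 25896 tested names and a threshold of 0.05. Where arrays of 2 groups are said not to overlap, the share of all tested names that did so was not counted. Arrays of genes that pass seldom overlap, so their separation adds no support. In such bulk samples fewer cells of a type and less RNA per cell cannot be told apart.

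**Figure D1:**
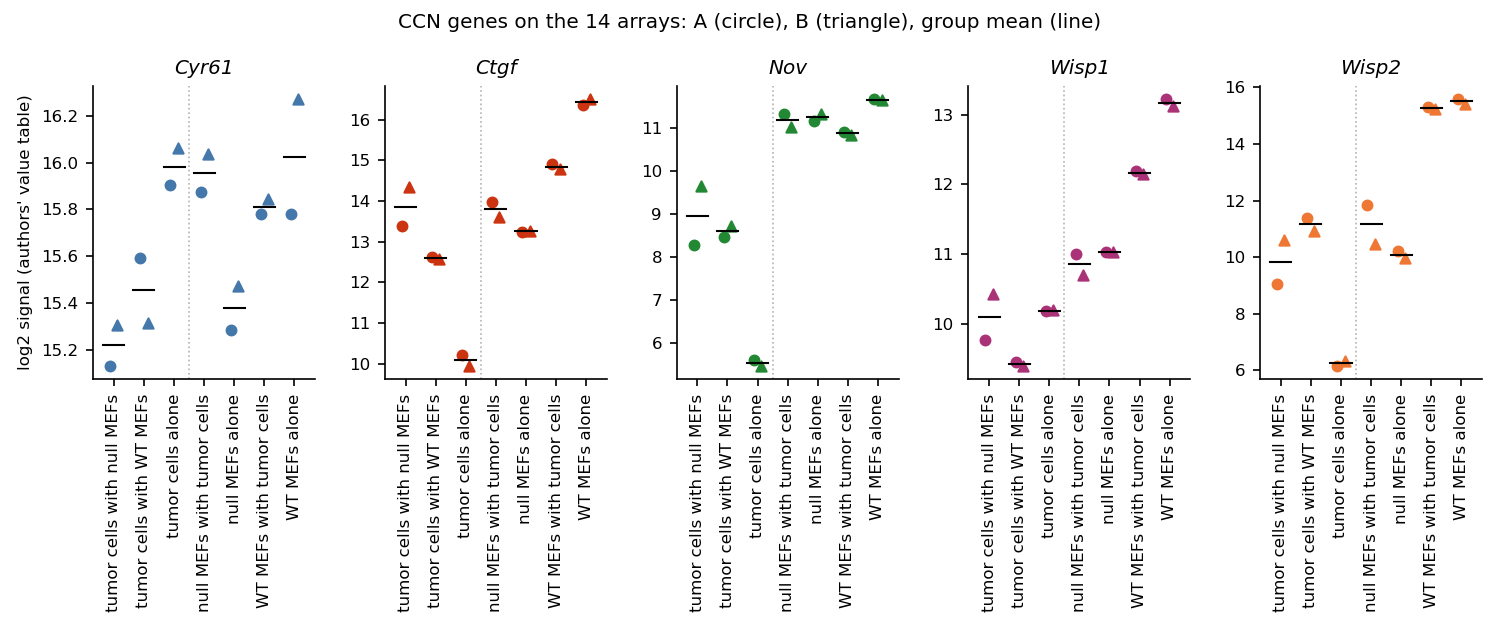
Log2 signal of each CCN gene (y axes, a scale of its own per gene) on the A array (circle) and the B array (triangle) of the 7 groups, with the group mean as a line; tumor cells stand left of the dotted line. Ctgf, Nov and Wisp2 were lowest in tumor cells alone, while Cyr61 spanned less than 1 log2 unit between group means.

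Grown alone, tumor cells had less of 4 members than WT MEFs. Over all tested names, 51.4% passed in this comparison, 27.8% higher and 23.6% lower in tumor cells. Wisp2 stood at 6.17 and 6.34 in tumor cells alone, against 15.58 and 15.43 in WT MEFs alone. That is a difference of -9.25 ± 0.49 (limma, adjusted p = 8.89e-08), the widest gap of the family. Ctgf stood at 10.22 and 9.95 in tumor cells alone, against 16.37 and 16.50 in WT MEFs alone, a difference of -6.35 ± 0.25 (limma, adjusted p = 1.39e-08). Nov read 5.61 and 5.48 in tumor cells alone, against 11.66 and 11.64 in WT MEFs alone. The Nov probe was not well above background on the array of tumor cells alone with a sound scanner file, so its signal was at least 68.8-fold lower in tumor cells (bound taken from the probe's own value, limma, adjusted p = 1.01e-07). Wisp1 was at 10.18 and 10.19 in tumor cells alone, against 13.22 and 13.13 in WT MEFs alone, a difference of -2.99 ± 0.18 (limma, adjusted p = 2.58e-07). For these 4 genes neither tumor array reached either WT MEF array.

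Cyr61 was the exception. It read 15.90 and 16.06 in tumor cells alone, against 15.78 and 16.27 in WT MEFs alone, and the groups overlapped. The difference of -0.04 ± 0.17 did not pass (limma, adjusted p = 0.858, 95% interval -0.42 to 0.33).

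Set against null MEFs alone, where 52.6% of tested names passed, 27.3% higher and 25.4% lower, all 5 members passed, 4 lower and 1 higher in tumor cells. Nov was at least 51.8-fold lower in tumor cells alone (limma, adjusted p = 1.64e-07), and Wisp2 differed by -3.84 ± 0.49 (limma, adjusted p = 6.57e-05). Ctgf differed by -3.18 ± 0.25 (limma, adjusted p = 1.96e-06) and Wisp1 by -0.84 ± 0.18 (limma, adjusted p = 0.00268). Cyr61 was higher in tumor cells alone by 0.61 ± 0.17 (limma, adjusted p = 0.0113), a call that ended without tumor cells alone B (adjusted p = 0.0662) or null MEFs alone A (0.0777) and on the 12 sound scanner arrays (0.0675). Both comparisons share the tumor cells alone.

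Between genotypes, null MEFs alone had less Wisp2, Ctgf, Wisp1 and Cyr61 than WT MEFs alone, and Nov did not pass. So 4 of 5 members fell, where 15.9% of all tested names fell, 17.9% rose and 33.8% passed in either direction; the members' median difference was -2.15, against 0.03 over all tested names. Wisp2 had 10.20 and 9.98 in null MEFs alone, against 15.58 and 15.43 in WT MEFs alone. It was 42.5-fold lower, a difference of -5.41 ± 0.49 (limma, adjusted p = 9.45e-06). Ctgf had 13.25 and 13.27 in null MEFs alone, against 16.37 and 16.50 in WT MEFs alone. It was 9.02-fold lower, with a difference of -3.17 ± 0.25 (limma, adjusted p = 3.91e-06). For both genes the null arrays lay far below the WT arrays and the arrays of a genotype lay close together.

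Wisp1 had 11.03 and 11.03 in null MEFs alone, against 13.22 and 13.13 in WT MEFs alone, and differed by -2.15 ± 0.18 (limma, adjusted p = 6.15e-06). Cyr61 had 15.28 and 15.47 in null MEFs alone, against 15.78 and 16.27 in WT MEFs alone, and differed by -0.65 ± 0.17 (limma, adjusted p = 0.0123). The Cyr61 groups did not overlap, but its call ended without WT MEFs alone B (adjusted p = 0.119), without null MEFs alone A (0.0892) and on the 12 sound scanner arrays (0.352). Nov had 11.15 and 11.33 in null MEFs alone, against 11.66 and 11.64 in WT MEFs alone. Its difference of -0.41 ± 0.33 did not pass (limma, adjusted p = 0.405, 95% interval -1.13 to 0.31), although the arrays did not overlap. It passed with each cell type fitted alone (adjusted p = 0.0382) and without either array of tumor cells with null MEFs (0.0416 each), where the spread between those arrays no longer enters the gene's error.

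In co-culture the genotype gap persisted for 3 members, where 29.5% of all tested names passed and 14.8% were lower and 14.7% higher in null MEFs. Wisp2 had 11.86 and 10.46 in null MEFs with tumor cells, against 15.30 and 15.24 in WT MEFs with tumor cells, a difference of -4.11 ± 0.49 (limma, adjusted p = 0.000107). Wisp1 had 11.003 and 10.70 in null MEFs with tumor cells, against 12.19 and 12.15 in WT MEFs with tumor cells, a difference of -1.32 ± 0.18 (limma, adjusted p = 0.000306). Ctgf had 13.97 and 13.62 in null MEFs with tumor cells, against 14.90 and 14.78 in WT MEFs with tumor cells. Its difference of -1.05 ± 0.25 passed (limma, adjusted p = 0.00968), but not without WT MEFs with tumor cells A (0.0621) or null MEFs with tumor cells B (0.073). In these 3 genes the null arrays stayed below the WT arrays. Nov, at 11.31 and 11.02 in null MEFs against 10.90 and 10.83 in WT MEFs, differed by 0.30 ± 0.33 (adjusted p = 0.577 with limma). Cyr61, at 15.87 and 16.04 in null MEFs against 15.78 and 15.85 in WT MEFs, differed by 0.14 ± 0.17 (adjusted p = 0.611 with limma). Neither passed.

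RNA typical of tumor cells moved with this comparison. Less the level in the same MEFs alone, its median in null MEFs with tumor cells was 8.83% and 9.23% of that in sorted tumor cells. In WT MEFs with tumor cells it was 36.9% and 37.1%. The names differ, with 92 for null MEFs and 77 for WT MEFs. Names at least 32-fold higher in tumor cells alone than in WT MEFs alone (77 names) differed between the sorted MEFs by a median of -1.68, and those chosen against null MEFs alone (92 names) by -1.93. With the tumor share subtracted and the remainder rescaled, an alternative chosen after seeing the data, the 3 calls were kept, at -4.68 for Wisp2 (limma, adjusted p = 0.000123), -1.85 for Wisp1 (4.83e-05) and -1.61 for Ctgf (0.00188), and Cyr61 differed by 0.03 (0.93). Without rescaling Cyr61 passed, at 0.58 (limma, adjusted p = 0.0164) or 0.556 (0.02) by choice of markers, but the median of all tested names was then 0.64 or 0.61, against 0.003 before.

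**Figure D2:**
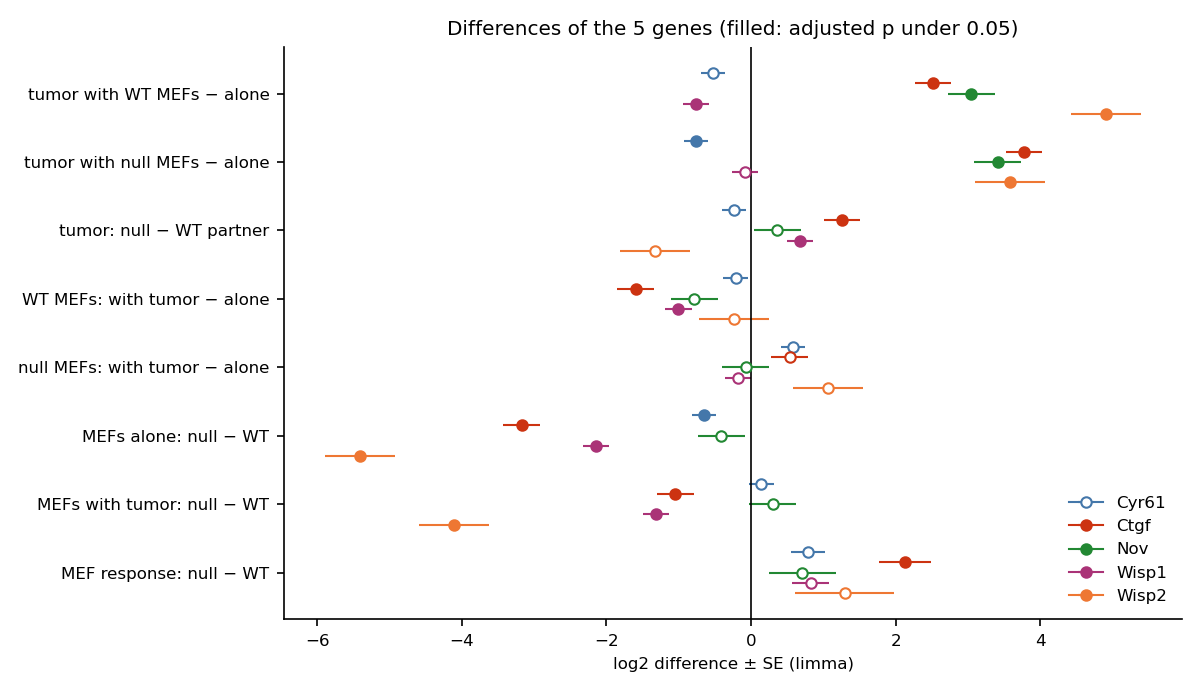
Log2 differences (x axis) with the SE of the fit for the 5 CCN genes in 8 comparisons (rows); filled points had an adjusted p under 0.05. Wisp2, Ctgf and Wisp1 lie left of 0 in both rows that set null MEFs against WT MEFs, and Ctgf, Nov and Wisp2 lie right of 0 in both rows that set co-cultured tumor cells against tumor cells alone.

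Ctgf and Wisp1 were lower in sorted WT MEFs from co-culture than in WT MEFs alone, and none of the 5 members passed in sorted null MEFs. In WT MEFs 2 of 5 members fell, where 4.2% of all tested names fell, 6.31% rose and 10.5% passed. Ctgf, at 14.90 and 14.78 in WT MEFs with tumor cells against 16.37 and 16.50 in WT MEFs alone, was 3.02-fold lower (-1.59 ± 0.25, limma, adjusted p = 0.00217). Wisp1, at 12.19 and 12.15 with tumor cells against 13.22 and 13.13 alone, differed by -1.005 ± 0.18 (limma, adjusted p = 0.00513). Both genes were lower on each co-culture array than on each array of WT MEFs alone. Nov, at 10.90 and 10.83 with tumor cells against 11.66 and 11.64 alone, differed by -0.78 ± 0.33 and did not pass (limma, adjusted p = 0.177), though it passed with each cell type fitted alone (0.00696), without either array of tumor cells with null MEFs (0.00473 each) and on the 12 sound scanner arrays (0.0416). Cyr61 differed by -0.21 ± 0.17 (adjusted p = 0.535 with limma) and Wisp2 by -0.23 ± 0.49 (adjusted p = 0.87 with limma, 95% interval -1.31 to 0.84).

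RNA typical of tumor cells moved with this comparison too, its 77 names standing in sorted WT MEFs at the 36.9% (A) and 37.1% (B) given above. The summed linear level of 15 epithelial markers was 74402 and 85705 in WT MEFs with tumor cells, against 1481 and 1638 in WT MEFs alone. In null MEFs alone it was already 7074 and 7938. Of the 13 tested in WT MEFs 3 rose, 2 fell and 8 did not pass, with a median of -0.08. Over all tested names 6.31% rose and 4.2% fell. Krt18, an epithelial keratin, rose by 8.25 ± 0.22 (limma, adjusted p = 3.15e-09), unlike most of the list. Macrophage and endothelial markers stayed near the same summed level in every group, at 815 to 1118 for 7 macrophage genes and 318 to 410 for 6 endothelial genes.

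MEF-typical names, at least 32-fold higher in WT MEFs alone than in tumor cells alone with the members left out (328 names), shifted by a median of -0.68 in WT MEFs with tumor cells, with a 10th to 90th percentile of -1.07 to -0.27. Ctgf lay lower than all but 1.52% of them, while Wisp1 had 15.5% of them lower than itself and Nov 37.8%. Wisp1, 7.92-fold lower in tumor cells alone than in WT MEFs alone, does not itself meet the 32-fold rule. When the tumor share was subtracted and the remainder rescaled, an alternative chosen after seeing the data, Ctgf differed by -1.05 (limma, adjusted p = 0.0508) and Wisp1 by -0.42 (0.225), so both calls ended. Subtraction without rescaling kept both calls and added Cyr61 and Nov, but it moved the median of all tested names to -0.77, where it was -0.04 before.

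In sorted null MEFs, where 3.14% of all tested names passed, 2.81% higher and 0.332% lower, no member passed by limma, and 1 had an unadjusted p under 0.05. That gene was Cyr61, with 15.87 and 16.04 in null MEFs with tumor cells against 15.28 and 15.47 in null MEFs alone. Its difference was 0.58 ± 0.17 (adjusted p = 0.133 with limma). Ctgf differed by 0.53 ± 0.25 (adjusted p = 0.496 with limma) and Wisp2 by 1.06 ± 0.49 (0.464). Wisp2 differed between slides, with 1.66 on slide A and 0.47 on slide B. Nov, at -0.07 ± 0.33, and Wisp1, at -0.18 ± 0.18, lay near 0. Tumor-typical names (92 for null MEFs) stood in these cells, less their level in null MEFs alone, at a median of 8.83% (A) and 9.23% (B). These are shares of the level they had in sorted tumor cells. The 252 names typical of null MEFs shifted by a median of -0.14. Of the members only Nov meets the 32-fold rule behind those 252 names.

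**Figure D3:**
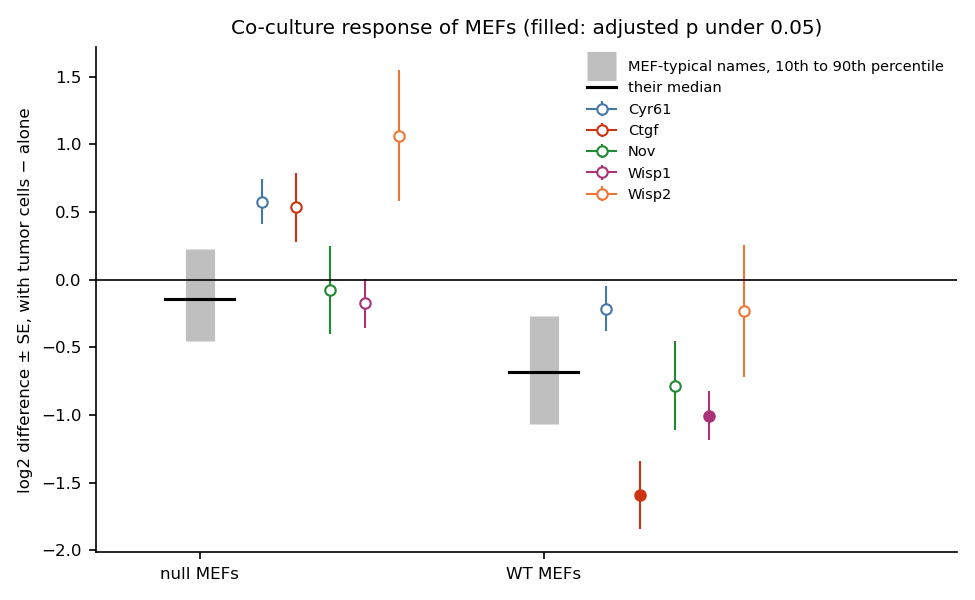
Log2 difference between MEFs with tumor cells and MEFs alone (y axis) for null MEFs and WT MEFs; points are the 5 CCN genes with the SE of the fit, filled where adjusted p was under 0.05, and the grey bar spans the 10th to 90th percentile of MEF-typical names with their median as a line. In WT MEFs Ctgf lies under the bar, whose median is -0.68, and in null MEFs Cyr61, Ctgf and Wisp2 lie over the bar but did not pass. Of the 5 genes only Nov meets the 32-fold rule of the bar for null MEFs, so for the others it is not a like comparison.

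The responses of null and WT MEFs were set against each other with an interaction term, which passed for 3.03% of all tested names, 1.07% with a higher and 1.96% with a lower response in null MEFs. Of the 5 members only Ctgf passed in this fit, with a difference of responses of 2.13 ± 0.36 (limma, adjusted p = 0.00903). It moved by 0.53 in null MEFs, against -1.59 in WT MEFs. After the tumor share was subtracted and the remainder rescaled, the difference was 1.56 and did not pass (adjusted p = 0.125). The differences of the other 4 were all above 0 without passing, from 0.71 ± 0.46 for Nov (adjusted p = 0.653 with limma) to 1.30 ± 0.69 for Wisp2 (0.51), with Cyr61 at 0.79 ± 0.24 (0.141) and Wisp1 at 0.83 ± 0.26 (0.154). Wisp1 passed without either array of tumor cells with null MEFs (adjusted p = 0.0216 each) and with MEFs fitted alone (0.0482), and Cyr61 without WT MEFs alone A (0.0499).

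Tumor cells sorted from co-culture had more Ctgf, Nov and Wisp2 than tumor cells alone with either MEF partner. With WT MEFs, 3 of 5 members rose and 1 fell, where 7.04% of all tested names rose, 4.77% fell and 11.8% passed. Wisp2 had 11.39 and 10.94 in tumor cells with WT MEFs, against 6.17 and 6.34 in tumor cells alone, a difference of 4.91 ± 0.49 (limma, adjusted p = 0.000135). Nov had 8.46 and 8.73 in tumor cells with WT MEFs, against 5.61 and 5.48 in tumor cells alone. It was at least 8.27-fold higher (limma, adjusted p = 0.000219). Ctgf had 12.63 and 12.57 in tumor cells with WT MEFs, against 10.22 and 9.95 in tumor cells alone, a difference of 2.52 ± 0.25 (limma, adjusted p = 0.000144). These 3 genes had no overlap between groups, which adds nothing to their having passed.

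Wisp1 went the other way with WT MEFs. It had 9.45 and 9.40 in tumor cells with WT MEFs, against 10.18 and 10.19 in tumor cells alone, a difference of -0.76 ± 0.18 (limma, adjusted p = 0.0214). The arrays did not overlap, but the call ended without any 1 of the 4 arrays (adjusted p = 0.0774 to 0.0999) and on the 12 sound scanner arrays (0.0692). Cyr61 had 15.59 and 15.32 in tumor cells with WT MEFs, against 15.90 and 16.06 in tumor cells alone. Its difference of -0.53 ± 0.17 did not pass (limma, adjusted p = 0.0707), but passed with slide as a block (0.0395) and without WT MEFs alone A or B (0.04 each).

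With null MEFs, again 3 of 5 members rose and 1 fell, where 10.1% of all tested names rose, 9.6% fell and 19.7% passed. Ctgf had 13.38 and 14.34 in tumor cells with null MEFs, against 10.22 and 9.95 in tumor cells alone. It was 13.7-fold higher (3.77 ± 0.25, limma, adjusted p = 2.9e-06). Nov had 8.28 and 9.64 in tumor cells with null MEFs, against 5.61 and 5.48 in tumor cells alone, at least 10.7-fold higher (limma, adjusted p = 4.58e-05). Wisp2 had 9.05 and 10.62 in tumor cells with null MEFs, against 6.17 and 6.34 in tumor cells alone, a difference of 3.59 ± 0.49 (limma, adjusted p = 0.000565). The groups stood well apart, but all 3 genes were higher on array B than on array A of tumor cells with null MEFs. The differences on slide A and slide B were 3.16 and 4.39 for Ctgf, 2.67 and 4.16 for Nov, and 2.89 and 4.28 for Wisp2.

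Cyr61 was lower, at 15.13 and 15.31 in tumor cells with null MEFs against 15.90 and 16.06 in tumor cells alone (-0.76 ± 0.17, limma, adjusted p = 0.0103). That call ended without tumor cells with null MEFs A (adjusted p = 0.0533), without tumor cells alone B (0.0608) and on the 12 sound scanner arrays (0.234). Wisp1 had 9.77 and 10.43 in tumor cells with null MEFs, spanning the 10.18 and 10.19 of tumor cells alone. It differed by -0.09 ± 0.18 and did not pass (limma, adjusted p = 0.778). The comparisons with either partner share the tumor cells alone.

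RNA typical of MEFs moved with these results too. In sorted tumor cells with WT MEFs, MEF-typical names stood, after taking off their level in tumor cells alone, at 7.35% (A) and 7.37% (B), in the median, of what sorted WT MEFs had. In sorted tumor cells with null MEFs, the median was 9.25% on array A and 22.9% on array B of the level in sorted null MEFs. These sorted MEFs had no mitomycin C, unlike the MEFs that the profiled tumor cells met, and the effect of that on the shares was not tested. Of 14 fibroblast markers, 12 rose in tumor cells with WT MEFs and 7 in tumor cells with null MEFs, and none fell. Col1a1, a fibrillar collagen, rose by 5.43 ± 0.34 with WT MEFs (limma, adjusted p = 7.95e-06) and by 6.52 ± 0.34 with null MEFs (4.82e-07). The summed linear level of the markers was 2.95e+05 and 4.05e+05 in tumor cells with null MEFs, 4.36e+05 and 4.54e+05 with WT MEFs, and 2.48e+05 and 2.83e+05 in tumor cells alone. Of the 14, 10 were well above background in tumor cells alone B.

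The members differed in where they stood among those names. In tumor cells with WT MEFs, Wisp2 stood at 6.58% (A) and 4.78% (B) of the level in sorted WT MEFs, inside the 10th to 90th percentile of MEF-typical names (4.48% to 13.2% on A, 4.73% to 12.6% on B). Ctgf stood at 17.9% and 17.1%, and Nov at 16.3% and 20.2%, above that range. These shares divide by the level in sorted WT MEFs. There Ctgf differed from WT MEFs alone by -1.59 and Nov by -0.78, against a median of -0.68 for MEF-typical names. A lower divisor gives a higher share, and shares of the level in WT MEFs alone were not computed. In tumor cells with null MEFs, Ctgf stood at 66.6% (A) and 137.5% (B) of the level in sorted null MEFs, above the ranges of 3.06% to 23.3% on A and 10.5% to 52.2% on B. Nov, at 11.4% and 32.4%, lay inside them, and Wisp2, at 17.8% and 58.5%, lay inside on A and above on B. Ctgf and Wisp2 were 9.04-fold and 14.3-fold lower in tumor cells alone than in null MEFs alone. That is under the 32-fold rule for MEF-typical names, so for these genes the ranges with null MEFs are not a like comparison.

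With the median MEF share subtracted and the remainder rescaled, Ctgf still rose, by 2.01 with WT MEFs (limma, adjusted p = 0.00358) and by 3.81 with null MEFs (2e-05). Nov rose by 2.52 with WT MEFs (limma, adjusted p = 0.0061) and by 2.04 with null MEFs (0.0101). Wisp2 rose by 3.08 with null MEFs (limma, adjusted p = 0.00632), but with WT MEFs its remaining signal was at the floor of 4.5 set for the subtraction, and the difference turned to -1.75 (adjusted p = 0.113). Wisp1 differed by -1.64 with WT MEFs (limma, adjusted p = 0.00101) and by -0.25 with null MEFs (0.421), and by 1.38 between the partners (0.00151). Whether every MEF-typical name carries over at 1 share was not tested. The subtraction used levels in sorted MEFs, which for Ctgf were lower in WT MEFs than in WT MEFs alone. Subtraction with levels in MEFs alone was not run.

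**Figure D4:**
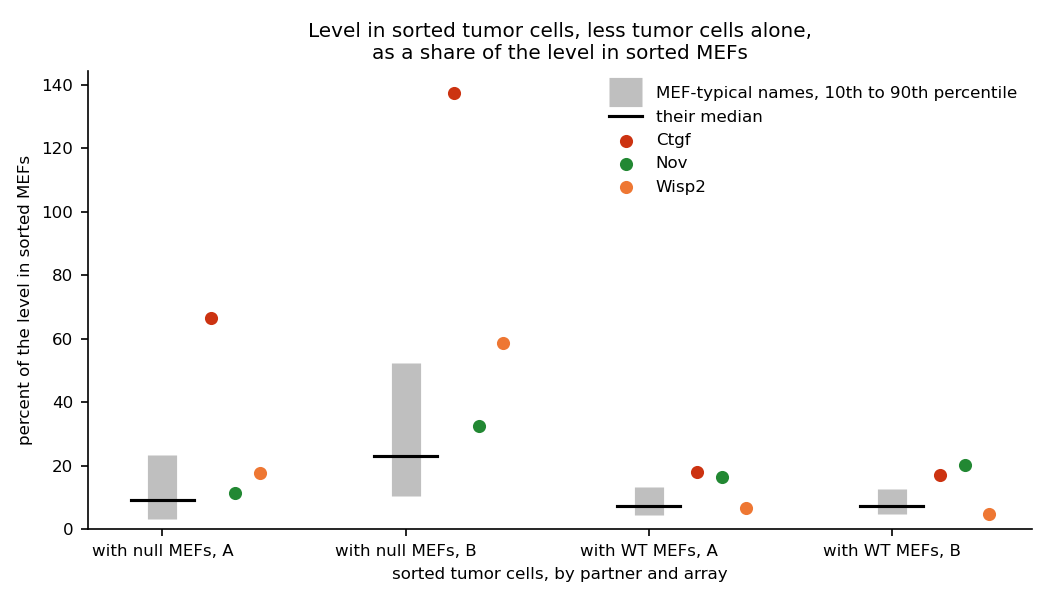
Level in sorted tumor cells, less that in tumor cells alone, as a percent of the level in MEFs of the same genotype sorted from co-culture (y axis), for the A and B arrays with each partner (x axis). The grey bar spans the 10th to 90th percentile of MEF-typical names and the line is their median. Ctgf lies over the bar on all 4 arrays, reaching 137.5% with null MEFs on B, and Wisp2 lies inside it on both arrays with WT MEFs. The Ctgf level in sorted WT MEFs, the divisor here, was itself lower than in WT MEFs alone.

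Between MEF partners, Ctgf and Wisp1 differed in sorted tumor cells, where 5.38% of all tested names were higher with null MEFs, 4.11% were lower and 9.49% passed. Ctgf, at 13.38 and 14.34 with null MEFs against 12.63 and 12.57 with WT MEFs, was 2.39-fold higher (1.26 ± 0.25, limma, adjusted p = 0.0108). The difference was 0.74 on slide A and 1.77 on slide B, and the call was lost with tumor cells fitted alone (adjusted p = 0.104) and when array B of tumor cells with WT MEFs was left out (0.063). With the MEF share subtracted and the remainder rescaled the difference was 1.80 (limma, adjusted p = 0.00404). Wisp1, at 9.77 and 10.43 with null MEFs against 9.45 and 9.40 with WT MEFs, was higher by 0.68 ± 0.18 (limma, adjusted p = 0.0428). Its value was 0.32 on slide A and 1.03 on slide B, and its call ended under 14 of the alternatives, of which 11 leave out 1 array, the one on all 14 scanner files left aside.

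The other 3 members did not pass between partners. Wisp2, at 9.05 and 10.62 with null MEFs against 11.39 and 10.94 with WT MEFs, differed by -1.33 ± 0.49 (adjusted p = 0.126 with limma), and the difference was -2.33 on slide A and -0.32 on slide B. Subtracting the MEF share turned it round, because the value with WT MEFs was then at the floor. It then passed, at 4.552 (limma, adjusted p = 0.000356), 4.577 (0.000301) or, rescaled, 4.835 (0.000448). It passed without tumor cells with null MEFs B (-2.11, adjusted p = 0.0192). Nov, at 8.28 and 9.64 with null MEFs against 8.46 and 8.73 with WT MEFs, differed by 0.37 ± 0.33 (adjusted p = 0.573 with limma), and passed without tumor cells with null MEFs A (1.04, adjusted p = 0.00333) and on the 12 sound scanner arrays (1.09, 0.0324). Both settings leave array B as the sole array of tumor cells with null MEFs, and without B the difference was -0.31 (limma, adjusted p = 0.345). Cyr61 differed by -0.23 ± 0.17 (0.462).

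Lists without the CCN members were counted. They held genes that share regulators with the family, Hippo pathway genes, and receptors and binding partners of CCN proteins. The counts are given first for null MEFs alone against WT MEFs alone, where 15.9% of all tested names fell and 17.9% rose. Of 20 YAP/TAZ signature genes 12 fell and 1 rose, with a median of -0.69, against 0.03 over all tested names. Ankrd1, a cardiac ankyrin repeat protein, differed by -2.05 ± 0.11 (limma, adjusted p = 2.21e-07), Igfbp3, an insulin-like growth factor binding protein, by -4.33 ± 0.32 (2.32e-06), and Amotl2, an angiomotin, by -1.78 ± 0.13 (2.41e-06). Of 14 Hippo pathway genes and YAP/TAZ cofactors 3 fell and 1 rose, a count of falls near that background, with a median of -0.06. Those that fell were the DNA-binding partners Tead3 (-1.90 ± 0.18, limma, adjusted p = 1.18e-05) and Tead1 (-0.96 ± 0.15, 0.000593) and the scaffold Sav1 (-0.72 ± 0.13, 0.0016).

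Of 13 SRF/MRTF targets, actin cytoskeleton genes in the main, 10 fell and none rose, with a median of -1.38. Actg2, a smooth muscle actin, differed by -5.45 ± 0.27 (limma, adjusted p = 1.64e-07). Of 13 SMAD feedback and TGF-beta early genes 8 fell and 2 rose, with a median of -0.59. The latent TGF-beta binding protein gene Ltbp2 differed by -5.62 ± 0.20 (limma, adjusted p = 2.56e-08). Of 9 tested Wnt/beta-catenin targets 5 fell and 1 rose, with Lgr5, an R-spondin receptor, at -3.42 ± 0.20 (limma, adjusted p = 4.12e-07). Of 17 tested receptors and binding partners of CCN proteins 10 fell and none rose. Tgfb1, the growth factor, differed by -1.76 ± 0.18 (limma, adjusted p = 2.06e-05) and Itga5, a fibronectin receptor subunit, by -1.57 ± 0.19 (7.6e-05). Of 14 fibroblast markers 8 fell and 2 rose in the same comparison, with a median of -0.997; their part in the CCN differences was not tested.

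**Figure D5:**
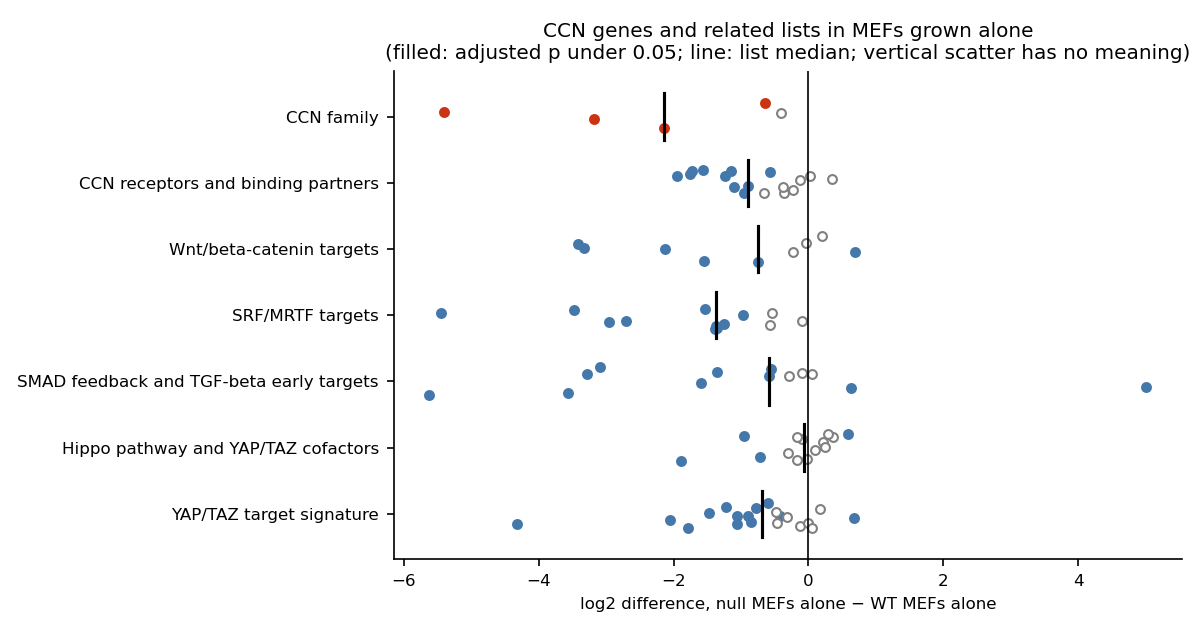
Log2 difference between null MEFs alone and WT MEFs alone (x axis) for the 5 CCN genes and the tested genes of 6 related lists (rows); filled points had an adjusted p under 0.05 and the line marks each list's median. The CCN median of -2.15 is the lowest of the 7 rows and the Hippo pathway median, -0.06, lies nearest to 0.

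In tumor cells with WT MEFs 1 of 20 signature genes rose and 6 fell, where 7.04% of all tested names rose and 4.77% fell; Ankrd1 differed by -1.95 ± 0.11 (limma, adjusted p = 3.44e-06) and F3, tissue factor, by -1.43 ± 0.14 (0.000135). With null MEFs 3 rose and 4 fell, where 10.1% of all tested names rose and 9.6% fell. Between the partners 4 were higher with null MEFs and none lower, where 5.38% of all tested names were higher and 4.11% lower. The matrix protein gene Ccdc80 rose with both, by 3.29 ± 0.33 with WT MEFs (limma, adjusted p = 0.000141) and 3.58 ± 0.33 with null MEFs (3.38e-05). Of 13 SMAD and TGF-beta genes 6 rose and 1 fell with WT MEFs, and 5 rose and 1 fell with null MEFs. Tgfb1i1, a focal adhesion adaptor, rose by 3.91 ± 0.24 (limma, adjusted p = 6.92e-06) and 4.67 ± 0.24 (3.92e-07). Of 13 SRF/MRTF targets 3 rose and 2 fell with WT MEFs, against 6 and 5 with null MEFs. Cnn1, a smooth muscle calponin, was higher in tumor cells with null MEFs than in tumor cells with WT MEFs by 1.74 ± 0.32 (limma, adjusted p = 0.00639). Tumor cells alone had far less of these 3 genes than WT MEFs alone, with differences of -8.42 for Tgfb1i1, -7.34 for Ccdc80 and -6.45 for Cnn1. MEF-typical RNA moved with these comparisons, as given above, and its part in the 3 genes was not tested.

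In WT MEFs with tumor cells, 3 of 20 YAP/TAZ signature genes rose and 1 fell, where 6.31% of all tested names rose and 4.2% fell. Nt5e, the ecto-enzyme CD73, rose by 2.72 ± 0.13 (limma, adjusted p = 2e-07). In tumor cells alone Nt5e was higher by 2.67 than in WT MEFs alone and by 2.79 than in null MEFs alone. Of 13 SRF/MRTF targets 3 fell and none rose. In null MEFs with tumor cells, 2.81% of all tested names rose and only 0.332% fell. There 4 of 20 signature genes rose and none fell, and of 13 genes in the SMAD list 3 rose and none fell. Ltbp2 rose by 3.68 ± 0.20 (limma, adjusted p = 1.48e-06). The response of null MEFs was above that of WT MEFs for Ltbp2 by 3.30 ± 0.29 (limma, adjusted p = 0.000156), the direction of Ctgf. For Nt5e it was below, by -1.32 ± 0.18 (limma, adjusted p = 0.00279). Tumor-typical names stood, less their level in the same MEFs alone, at 8.83% and 9.23% in sorted null MEFs (92 names). In sorted WT MEFs they stood at 36.9% and 37.1% (77 names), and their part in these Nt5e values was not tested.

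Over the 7 group means Ctgf went most closely with Wisp2 among the members (Pearson r = 0.913) and with Nov (0.864), while Cyr61 had r of 0.0217 to 0.536 with the others. These r describe 7 points that differ mainly between tumor cells and MEFs. Among 10367 names whose group means spanned at least 1 log2 unit, the names most like Ctgf were Styk1 (r = 0.996), Cnn1 (0.986) and LOC677253 (0.983). Those most like Nov were Vmn2r-ps134 (r = 0.998), the transcript ENSMUST00000110728 (0.998) and Jam3 (0.997), and those most like Wisp1 were 1500004A13Rik (0.997), Gm4425 (0.996) and Npr3 (0.996). Those most like Wisp2 were Slc1a6 (0.995), Sfxn3 (0.995) and Lrrc32 (0.994). For Cyr61 no name came near: the best was D930023I05Rik at 0.833.

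By group mean, all 5 members were highest in WT MEFs alone. The lowest group was tumor cells alone for Ctgf, Nov and Wisp2, tumor cells with WT MEFs for Wisp1, and tumor cells with null MEFs for Cyr61. Neighbouring means that overlapped were tumor cells with null MEFs and null MEFs with tumor cells for Ctgf, and tumor cells with null MEFs and tumor cells alone for Wisp1. For Wisp2 they were tumor cells with WT MEFs and null MEFs with tumor cells, and tumor cells with null MEFs and null MEFs alone. For Nov the overlapping neighbours were null MEFs with tumor cells and alone, and tumor cells with null and with WT MEFs. For Cyr61, whose mean was 15.22 in tumor cells with null MEFs and 16.03 in WT MEFs alone, 4 of 6 neighbouring pairs overlapped.

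The 2 Wisp1 probes were read on the 12 sound scanner arrays. Their mean followed the value table most closely, with an SD of the difference of 0.05 over arrays, against 0.12 and 0.14 for the probes alone. Between null MEFs alone and WT MEFs alone the probe that ends at the stop codon differed by -2.16 ± 0.16 (limma, adjusted p = 0.000269) and the probe further along by -2.12 ± 0.21 (0.000839). In WT MEFs with tumor cells against alone they differed by -0.94 ± 0.16 (limma, adjusted p = 0.0306) and -1.16 ± 0.21 (0.0366). Between tumor cells with null MEFs and tumor cells with WT MEFs, the first passed at 1.19 ± 0.20 (limma, adjusted p = 0.0283) and the second did not, at 0.98 ± 0.26 (0.14). Between tumor cells alone and null MEFs alone, the first did not pass, at -0.59 (limma, adjusted p = 0.0566), and the second did, at -1.17 (0.018). Tumor cells alone and tumor cells with null MEFs are 1 array each in that fit, which assumes that the lone array varies like the other groups.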

How the data were processed

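Expression was measured on 14 one-colour Agilent arrays (design 028005) in 7 groups of 2. Per the file headers, the deposited intensity values came from Feature Extraction 10.1.1.1; the submitters' processing notes name version 9.1. The authors deposited a table of log2 values with 1 line per gene name. For Wisp1, the only gene checked, it followed the mean of both probes most closely, and other names were not checked. How the authors scaled the table is not given in the sources used here (array medians 6.34 to 6.40), and its centring stays unknown. The scanner files of 2 arrays were faulty: 36.8% and 32.1% of spots carried outlier flags and their correlation with the value table was 0.497 and 0.324, against 0.246% to 5.74% and 0.956 to 0.971 on the other 12. The value table was therefore the main input.

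A name was tested where it was well above background on both arrays of at least 1 group (flags of the faulty files left out). All 14 arrays entered 1 limma model (limma 3.58.1, R 4.3.3) with 7 group means and 7 residual degrees of freedom, tested on simulated data beforehand. A lower bound was taken against the higher of the array's dimmest well-above value and the probe's own. Members and lists were chosen with earlier results of these data known. The genes to name were the members, Hsf1, the 3 names most like each member over group means, and up to 3 passing genes of smallest p per list and comparison. The result of 1 list gene is not reported here; counts include it. Per the file headers, all A arrays share a slide and all B arrays share the other. Deviations of same-letter arrays correlated by 0.092 to 0.599 (median 0.298), over 0.1 in 20 of 21 pairs of groups, and slide as a block is an alternative. Others were the scanner arrays, and normexp with quantile normalization on the sound scanner arrays. Further ones were other filters, each cell type fitted alone, each array left out and the other cell type's share subtracted. Sequences are those of the array's probes in the scanner files.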

Additional observations from a re-analysis of the deposited data

Results flagged for a closer look

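The response of Ctgf to co-culture differed between MEF genotypes by a test of that difference: it was 2.13 higher on the log2 scale in null MEFs than in WT MEFs (limma interaction term, adjusted p = 0.00903, n = 2 arrays per group). The value was 13.97 and 13.62 in null MEFs with tumor cells against 13.25 and 13.27 in null MEFs alone, and 14.90 and 14.78 in WT MEFs with tumor cells against 16.37 and 16.50 in WT MEFs alone. Both null co-culture arrays lay above both arrays of null MEFs alone, and both WT co-culture arrays below both arrays of WT MEFs alone. How many tested names separate in this way was not counted. The rise in null MEFs, 0.53 ± 0.25, did not pass (limma, adjusted p = 0.496). The fall in WT MEFs, -1.59 ± 0.25, did (limma, adjusted p = 0.00217). With the tumor share subtracted and the remainder rescaled, the difference of responses was 1.56 and did not pass (adjusted p = 0.125).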

How the results depend on the processing

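Of 50 member results in 10 comparisons, 29 passed. The share of all tested names that passed ran from 3.03% to 52.6% by comparison, and comparisons share groups. All 29 had the same sign on both slides, but these are the arrays that gave the calls. A result that passes with 2 arrays per group will nearly always have this, so it adds no support. With slide as a replicate block all 29 calls were kept and 1 was added, Cyr61 in tumor cells with WT MEFs against alone (-0.53, adjusted p = 0.0395). Quantile normalization of the value table changed no call, and 25 of 29 were kept on the 12 sound scanner arrays. Leaving out 1 array ended between 0 and 4 calls. On all 14 scanner files, faulty ones included, 4 calls were kept. The number of members called was then 3 in tumor cells alone against WT MEFs alone, 1 in tumor cells alone against null MEFs alone and 0 in the other 8 comparisons, of which null MEFs with tumor cells against alone had 0 before. For tumor cells with null against WT MEFs the number called was 1 with no filter on dim genes and 0 with tumor cells fitted alone, against 2, and it was 0 to 3 with an array left out. For the difference of MEF responses it was 2 with MEFs fitted alone, against 1, and 1 to 2 with an array left out. With the other cell type's share subtracted without rescaling, 4 members passed in WT MEFs and 3 in the difference of responses, under either choice of markers, and the rescaled form gave 0 in both. Without rescaling the median of all tested names in WT MEFs was -0.82 or -0.77 by choice of markers, and rescaled it was -0.11, against -0.04 before. The choice of markers from cells grown alone and the rescaling were added after seeing the data. Over all tested names, tumor cells with WT MEFs against alone had 3058 calls, but 1191 on the 12 sound scanner arrays, 1279 with tumor cells fitted alone and 3 on all 14 scanner files.

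Signs changed as follows. Wisp2 in tumor cells with WT MEFs against alone became -1.75 under all 3 subtractions. Between null and WT partners it became 4.552 and 4.577, or 4.835 rescaled, and in WT MEFs with tumor cells 0.40 rescaled. Wisp1 on all 14 scanner files became 1.53 with WT MEFs against alone and -1.53 between partners. In tumor cells with null MEFs against alone, Wisp1 became 0.263 on 12 scanner arrays, 0.268 with normexp, and 0.199 and 0.328 for its probes, and ran from -0.415 to 0.240 with an array left out. Values that did not pass and changed sign were, for Nov between partners, -0.70, -0.621 and -0.473 by subtraction and -0.312 to 1.04 with an array left out. For Nov in null MEFs with tumor cells they were 0.0304 rescaled and -0.219 to 0.0707 with an array left out, and rescaled between genotypes in co-culture -0.147. For Cyr61 they were 0.5485 between partners on all 14 scanner files, -0.459 to 0.0315 in WT MEFs with an array left out, and -0.0539 in null MEFs on either set of scanner files. For Cyr61 in tumor cells alone against WT MEFs alone they were 0.735 on 12 and 1.01 on 14 scanner files, 0.0440 with normexp and -0.287 to 0.204 with an array left out. The cause of these changes was not tested. Nov has no value where only names above background in every group are kept.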
